A study of Mus musculus with 2 samples.

Results

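The 86 genes described here encode the proteins of the cytoplasmic ribosome and their close relatives. They were chosen by symbol from the 32285 genes of the deposited matrices: symbols that begin with Rpl or Rps followed by a digit, plus Rplp0, Rplp1, Rplp2 and Rpsa, without the Rps6k kinases and without the rows that carry "-ps" in their symbol. Of the 86, 46 are common proteins of the large subunit and 31 of the small subunit. The other 9 are 7 like-genes (Rpl3l, Rpl7l1, Rpl10l, Rpl22l1, Rpl36al, Rpl39l and Rps27l), 1 retrogene (Rps27rt) and 1 gene for a binding protein (Rps19bp1).

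Single cells came from hippocampi of untreated mice aged 4 weeks, in 2 libraries. The Crlf3-mutant library is from mice whose Crlf3 (cytokine receptor-like factor 3) carries L389P, and the wild-type library is from mice without it. Each library pooled 4 hippocampi of 2 mice, so each genotype is 1 library. No difference between genotypes was tested, and genotype cannot be told apart from the animals pooled, the dissociation or the library preparation. Strain and zygosity are not given in the sources used here, and the counts carry no allele with which to check the genotype.

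A ribosome needs each of its proteins in matched amounts, and their messenger RNAs are among the most abundant of any cell. In mammals these mRNAs begin with a C followed by a run of pyrimidines, the 5′ terminal oligopyrimidine (TOP) motif, through which mTORC1 and the RNA-binding protein LARP1 set their translation. Cells that grow and divide, such as the neural precursors of the hippocampus, make many ribosomes. Loss of 1 copy of several of these genes causes Diamond-Blackfan anaemia in humans, and loss of Rpl38 function disturbs the patterning of the axial skeleton in mice.

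The first 25 bases of the annotated transcripts are shown because the libraries counted 5′ ends and the TOP motif lies there. Capitals mark a C within the first 5 bases that is followed by at least 4 pyrimidines (C or T), to the end of that run. The first 6 are among the members whose level differed most between the libraries, and the other 6 show motif-bearing members and pairs of a common protein and its like-gene.
Rps29: gttgtcgcacggcgtacgcgtcacg
Rps28: ctcgcgagagcgaaagtgaggcgtg
Rpl38: ggggttaaccgtccggaagcggaag
Rps21: CCCTCCTgcccaatagtgctgcgga
Rpl21: gtcagcacgctacggaagtcgcgtc
Rps13: gtcggtgagtggcgtcacttcctgt
Rplp1: gatCTTTTCCTCagctgccgccaag
Rps24: CTCTTTTCCTCCTCTCCagctccgg
Rpl22: gCCCCCCTCCCTTTCTgcctcctct
Rpl22l1: gttgcgtatttcgcacgctctgcgt
Rps27: gCTCCTTTCCggcggtgacgacctc
Rps27l: gCCTCTatcccggaagttgctgagg

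These sequences are from GENCODE M21 on mm10, read on the strand of the gene. The stretch of Rps29 is chr12:69159162-69159186 (minus strand), that of Rps28 chr17:33824538-33824562 (minus), that of Rpl38 chr11:114668548-114668572 (plus) and that of Rps21 chr2:180257377-180257401 (plus). The stretch of Rpl21 is chr5:146832890-146832914 (plus) and that of Rps13 chr7:116334171-116334195 (minus). By this rule, 23 of the 86 genes (26.7%) hold the motif at the annotated start, against 8.85% of 21900 protein-coding genes. An annotated start can lie some bases from the start used in the cell, so a sequence without capitals says only that the run is not in these letters. Among Rps29, Rps28, Rpl38 and Rps21, Rps21 alone holds the motif by this rule, and neither Rpl21 nor Rps13 does.

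The mutant matrix held 43103469 UMIs (unique molecular identifiers, 1 per captured RNA molecule) in 5720 barcodes and the wild-type matrix 51328178 UMIs in 7713 barcodes. After filters on depth and mitochondrial RNA and removal of called doublets, 5276 mutant and 7098 wild-type cells were left, with medians of 7385 and 6193 UMIs. Of the barcodes left, 54 occurred in both libraries. A cell was put in a class when it held at least 3 of the class's markers at 2 or more UMIs each and fewer than 2 of any other class, which placed 4911 mutant and 6439 wild-type cells. Classes with at least 100 cells in both libraries were compared: microglia (3231 mutant and 4398 wild-type cells), astrocytes (466 and 746), endothelial cells (780 and 783), mural cells of the vessel wall (151 and 114) and the neuron lineage of progenitors and young neurons (196 and 156). No cell passed the gate for oligodendrocytes. The 6 microglial markers summed to 11718 CPM (UMIs per 1000000 UMIs of the class) in mutant and 11647 CPM in wild-type microglia, where the 6 astrocyte markers summed to 15.4 and 26.9 CPM.

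Ribosomal protein mRNA took close to the same share of each class in both libraries, and the classes differed far more than the genotypes. In neuron lineage cells the 86 genes held 10.4% of UMIs in the mutant library (exact 95% interval 10.3 to 10.4) and 10.2% in the wild-type library (10.2 to 10.3). Microglia stood at 9.30% (9.28 to 9.31) in the mutant and 9.80% (9.79 to 9.82) in the wild-type library, and endothelial cells at 8.25% (8.22 to 8.28) and 8.59% (8.56 to 8.62). Mural cells had 5.41% (5.35 to 5.47) in the mutant and 5.43% (5.36 to 5.50) in the wild-type library. Astrocytes had the lowest share, 2.95% (2.93 to 2.97) in the mutant and 2.94% (2.92 to 2.96) in the wild-type library. All intervals here and below cover counting error alone, and say nothing of the spread between animals or preparations.

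**Figure D1:**
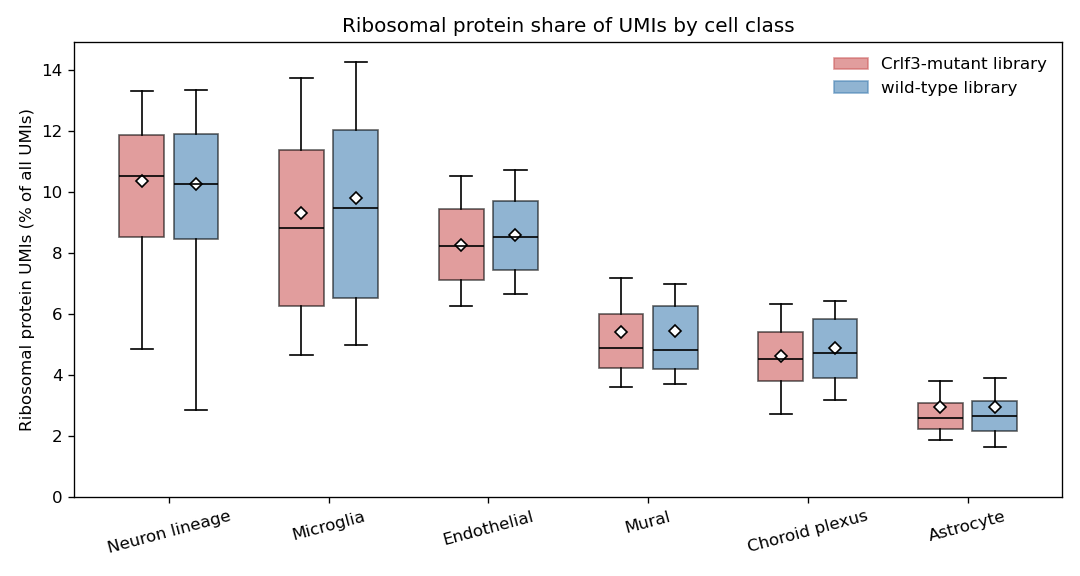
Percentage of a cell's UMIs that came from the 86 ribosomal protein genes (vertical axis), by cell class and library. Boxes give the middle 50% of cells with the median as a line, whiskers the 10th and 90th percentiles, and diamonds the share of the summed UMIs. Neuron lineage and microglia lie highest and astrocytes lowest in both libraries, and the boxes of the libraries overlap in every class.

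The log2 ratio of the share, mutant over wild type, was -0.077 in microglia (interval -0.079 to -0.074), -0.06 in endothelial cells (-0.065 to -0.052), 0.02 in the neuron lineage (0.0076 to 0.027), -0.01 in mural cells (-0.030 to 0.020) and 0.00 in astrocytes (-0.0072 to 0.016). These differences are small beside the spread over cells: the middle 50% of mutant microglia ran from 6.27% to 11.4% and of wild-type microglia from 6.53% to 12.01%. Depth moved with the share in microglia. With microglia split into shallow, middle and deep groups of equal size, the median share in the mutant library was 6.81%, 8.78% and 9.91%, and in the wild-type library 7.73%, 8.87% and 10.6%, while mutant cells were the deeper ones (median 7744 against 6357 UMIs). With every cell thinned to 2000 UMIs, the median share was 8.85% in 3204 mutant and 9.45% in 4348 wild-type microglia. In the neuron lineage the shallow group was also the lowest. The same split gave 8.53%, 11.2% and 10.6% in the mutant and 6.10%, 10.7% and 10.9% in the wild-type library. There too the mutant cells were the deeper ones (median 10915 against 8676 UMIs). In mutant endothelial cells the share fell with depth, from 8.66% to 7.84%.

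Choroid plexus cells were too few for the comparison (54 mutant and 193 wild-type cells) and are given as a level, 4.62% in the mutant and 4.89% in the wild-type library. Another 104 mutant and 237 wild-type cells with choroid plexus markers were left out for markers of other classes. Taken by cluster, this class stood at 6.24% in the mutant and 5.91% in the wild-type library, so its order between libraries depends on how the cells are chosen.

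Microglia with at least 10 UMIs of the chemokine genes Ccl3 and Ccl4, which rise when microglia are activated or handled, had a share of 9.68% in the mutant and 10.3% in the wild-type library. In the other microglia it was 9.12% in the mutant and 9.49% in the wild-type library. In microglia with at least 10 UMIs of the heat shock genes Hspa1a and Hspa1b it was 9.41% in the mutant and 9.67% in the wild-type library, and in those below that level 9.29% and 9.82%. The mutant share was therefore the lower in all 4 of these groups, which split the same microglia in different ways and are not separate observations. The groups also differed in depth. Median UMIs with and without the chemokine level were 8218 and 7561 in the mutant and 6946 and 6122 in the wild-type library. With and without the heat shock level they were 7713.5 and 7747 in the mutant and 5258 and 6455 in the wild-type library. Within the neuron lineage, cycling cells had 9.87% in the mutant (34 cells) and 10.6% in the wild-type library (25 cells). Cells that were not cycling had 10.5% in the mutant (162 cells) and 10.1% in the wild-type library (131 cells). The cycling cells were the deeper ones, with medians of 16561.5 against 10245 UMIs in the mutant and 13569 against 8237 UMIs in the wild-type library.

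Single genes were compared by CPM over the summed UMIs of a class, as a log2 ratio with 10 CPM added to both sides. A gene counted as measured when its higher library had 50 CPM or more and 30 UMIs or more, which 80 to 82 of the 86 reached in each class. The 86 genes as a set barely differed. Their median log2 ratio was -0.05 in microglia, -0.04 in endothelial cells, -0.01 in mural cells, 0.02 in the neuron lineage and 0.03 in astrocytes. Over all genes of at least 500 CPM, a level most ribosomal protein genes reach outside astrocytes, the medians were -0.02, -0.01, 0.00, 0.03 and 0.02 in the same order of classes. Members were among those genes: 68 of 304 in microglia, 66 of 309 in endothelial cells, 62 of 315 in mural cells, 71 of 271 in the neuron lineage and 16 of 254 in astrocytes. In microglia 72 of 81 measured members lay below 0, so that 11.1% lay above 0, against 41.4% of all genes of at least 500 CPM. In endothelial cells 61 of 81 lay below 0, with 24.7% above 0 against 44.98% of those genes. The other classes lay near that background: 64.6% of members (53 of 82) against 60.5% of those genes above 0 in the neuron lineage, 59.3% (48 of 81) against 59.1% in astrocytes, and 46.2% (37 of 80) against 49.2% in mural cells.

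Few members passed a size of 1.2 times. In microglia 2 were higher and 3 lower in the mutant library, where 0.526% and 0.712% of the 3232 genes measured in that class were higher and lower by that size. Astrocytes had 1 member higher and 3 lower (2.74% and 3.74% of all genes), and endothelial cells 1 higher and 3 lower (1.94% and 1.49%). In the neuron lineage 2 were higher and 2 lower (6.03% and 7.7% of all genes). Mural cells had 1 higher and 3 lower, beside 22.6% and 13.2% of all genes: at 593646 mutant and 379281 wild-type UMIs this class is shallow, and its single-gene ratios are loosely fixed. Among genes of at least 500 CPM the shares higher and lower by 1.2 times were 1.64% and 1.97% in microglia, 1.57% and 2.76% in astrocytes, 0.324% and 2.27% in endothelial cells, 10.5% and 5.08% in mural cells and 2.21% and 3.69% in the neuron lineage. All these background shares include the members. In microglia the shares at 500 CPM stand for 5 and 6 of 304 genes, and the 2 higher and 3 lower of the 81 measured members are among them. No member passed 1.5 times in any of the 5 classes. Of all genes, 0.0619% were higher and 0.0619% lower by that size in microglia, 0.0277% and 0.194% in astrocytes, 0% and 0.0281% in endothelial cells, 5.08% and 1.77% in mural cells, and 0.467% and 0.178% in the neuron lineage.

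Several of the members that stood apart were the same genes in class after class. Rps29, Rps28, Rpl38 and Rps21 were lower, and Rpl17, Rpl21 and Rps13 higher, in the mutant library in all 5 classes. Rps21 was not among the 3 lowest members of any class. Rpl6, of the large subunit, lay lower than Rps21 in astrocytes (log2 -0.14 against -0.10), endothelial cells (-0.20 against -0.16) and the neuron lineage (-0.21 against -0.14). The ratio of Rpl6 was -0.23 in microglia and 0.15 in mural cells. Other choices of cells or depth turned some of these directions: Rps21 in astrocytes, mural cells and the neuron lineage, Rpl38 in mural cells and the neuron lineage, and Rpl17 and Rpl21 in mural cells. Rps29, Rps28 and Rps13 kept their direction in every class under the alternatives run, although in mural cells Rps29 came as near 0 as -0.0021 and Rps13 as 0.0057. The classes of a library share its pools, preparation and sequencing run, so 5 classes are not 5 independent observations.

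**Figure D2:**
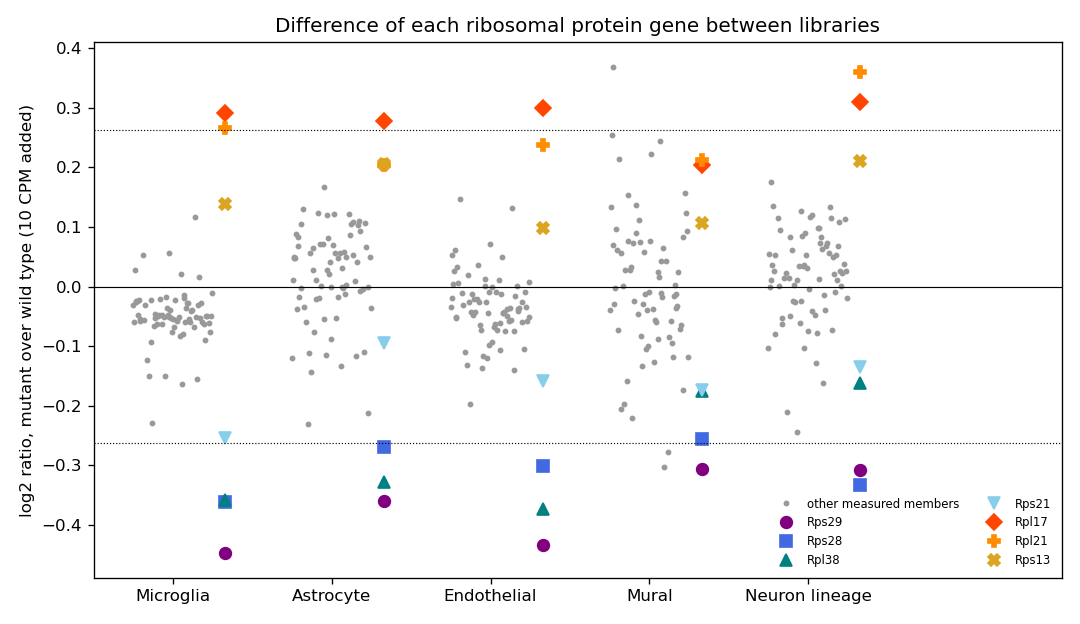
Log2 ratio of CPM, mutant over wild type with 10 CPM added (vertical axis), for each measured ribosomal protein gene in the 5 compared classes. Grey points are the other members, coloured symbols the 7 named genes, and dotted lines 1.2 times. Rps29 and Rps28 lie at the low end and Rpl17 and Rpl21 near the high end in each class.

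Rps29 encodes a small zinc-binding protein of the small subunit. In microglia it had 3441 CPM in the mutant library (exact Poisson 95% interval 3418 to 3464) and 4695 CPM in the wild-type library (4671 to 4720), a log2 ratio of -0.45. Endothelial cells had 2022 CPM (1980 to 2065) in the mutant and 2734 CPM (2682 to 2787) in the wild-type library (log2 -0.43). Astrocytes had 640.4 CPM (614 to 667) in the mutant and 825 CPM (798 to 852) in the wild-type library (log2 -0.36). Its level was lower in the mutant library by more than the counting error in each of these classes. In the neuron lineage it had 1769 CPM (1714 to 1826) in the mutant and 2193 CPM (2116 to 2272) in the wild-type library, and in mural cells 1097 CPM (1014 to 1184) and 1358 CPM (1243 to 1480), both with a log2 ratio of -0.31.

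Rps28, a small-subunit protein near the path of the mRNA, followed the same order. It had 1412 CPM (1398 to 1427) in mutant and 1817 CPM (1802 to 1833) in wild-type microglia (log2 -0.36), and 1573 CPM (1521 to 1627) in mutant and 1984 CPM (1911 to 2060) in wild-type cells of the neuron lineage (log2 -0.33). The log2 ratios were -0.30 in endothelial cells, -0.27 in astrocytes and -0.26 in mural cells, where the intervals of the libraries overlapped (555 to 683 CPM in the mutant and 654 to 830 CPM in the wild-type library). Rps28 overlaps Kank3, which lies on the opposite strand.

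Rpl38, a large-subunit protein, was most abundant in endothelial cells. There it had 2364 CPM (2319 to 2410) in the mutant and 3063 CPM (3008 to 3119) in the wild-type library (log2 -0.37). Microglia had 849 CPM (838 to 860.3) in the mutant and 1091 CPM (1079 to 1103) in the wild-type library (log2 -0.36), and astrocytes 407 CPM (387 to 429) and 514 CPM (493 to 535) (log2 -0.33). The ratio was nearer 0 in the neuron lineage (-0.16), where the intervals of the libraries still lay apart but the ratio stood at 0.06 with cells thinned to 2000 UMIs, and in mural cells (-0.17), where they overlapped. Rps21, another small-subunit protein, had log2 ratios of -0.25 in microglia, -0.17 in mural cells, -0.16 in endothelial cells, -0.14 in the neuron lineage and -0.10 in astrocytes. Its intervals overlapped between libraries in astrocytes and mural cells, and in the neuron lineage its ratio stood at 0.03 under a stricter gate.

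On the other side stood Rpl17 and Rpl21, both of the large subunit. Rpl17, which lies on chromosome 18, had 554 CPM (544 to 563) in mutant and 451 CPM (443 to 458) in wild-type microglia (log2 0.29). It had 497 CPM (476 to 518) in mutant and 401 CPM (382 to 422) in wild-type endothelial cells (log2 0.30), and 627 CPM (594 to 661) in mutant and 504 CPM (467 to 543) in wild-type cells of the neuron lineage (log2 0.31). Rpl21 had 1259 CPM (1246 to 1273) in mutant and 1045 CPM (1033 to 1057) in wild-type microglia (log2 0.27), and its ratio was widest in the neuron lineage, with 1201 CPM (1156 to 1248) in the mutant and 934 CPM (884 to 986) in the wild-type library (log2 0.36). In mural cells the intervals of both genes overlapped between libraries, and with cells taken by cluster the ratios there were -0.012 for Rpl17 and -0.0038 for Rpl21. Rps13, of the small subunit, was higher by less, with log2 ratios of 0.21 in astrocytes, 0.21 in the neuron lineage, 0.14 in microglia, 0.11 in mural cells and 0.10 in endothelial cells. Its intervals overlapped between libraries in endothelial and mural cells.

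Several of these genes have processed copies elsewhere in the genome that can share reads with them. GENCODE M21 names 15 "-ps" copies of Rpl21, 11 of Rpl17, 7 of Rps13, 2 of Rpl38 and 1 of Rps29, and none of these copies has a row in the matrices. How the counting treated reads that match a gene and its copy is not given in the sources used here, so the levels of these genes are uncertain to that extent.

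Some other members reached the ends of the range in 1 class. In the neuron lineage Rps19bp1, whose product binds Rps19, had 52.3 CPM (43.1 to 62.8) in the mutant and 63.7 CPM (51.2 to 78.4) in the wild-type library (log2 -0.24), with overlapping intervals, and in astrocytes its log2 ratio was -0.21, again with overlapping intervals. In endothelial cells Rpl27a, of the large subunit, had 1578 CPM (1541 to 1615) in the mutant and 1424 CPM (1386 to 1462) in the wild-type library (log2 0.15). Its ratio lay above 0 in the other classes too, from 0.05 in microglia to 0.21 in mural cells. In mural cells Rpl7a had 681 CPM in the mutant and 525 CPM in the wild-type library (log2 0.37), and Rpl13a (log2 0.25) and Rps4x (log2 0.25) came next. Rpl22l1 (log2 -0.30) was among the lowest there. Of these, Rpl13a stood at -0.14 with cells taken by cluster and Rpl22l1 at 0.27 in the cells that held Xist alone.

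The members that were lower in every class are mostly those with the shortest coding sequences. Coding length was taken from the principal annotated transcript of each gene, without the stop codon, and the grouping was made after the ratios had been seen, so it is a description. Of 80 members measured in all 5 classes, 12 lay below 0 and 5 above 0 in all of them. Genes outside the set, short or long, were not counted in this way, and the classes share the libraries. Whether the counts of members below or above 0 in all classes are unusual was therefore not tested. Among the 10 members under 300 bases, 8 lay below 0 in all classes and 0 above 0 in all, and the median of their mean log2 ratio over the classes was -0.13. Among the 70 longer ones, 4 lay below 0 and 5 above 0 in all classes, with a median of 0.00. Rpl6, one of the longer ones, is not among those 4, because its ratio lay above 0 in mural cells.

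The 8 short ones were Rps29 (168 bases), Rps28 (207), Rpl38 (210), Rps21 (249), Rps27 (252), Rpl37a (276), Rpl39 (153) and Rpl37 (291), with mean log2 ratios of -0.37, -0.30, -0.28, -0.16, -0.15, -0.12, -0.11 and -0.10. Length did not set the order among them. Rpl41, the shortest of all with 75 bases, had a mean ratio of -0.02, and Rps27l, as long as Rps27, had 0.02. Across the 80 genes Spearman's rho between coding length and the mean ratio was 0.44, and 0.26 over the 70 longer genes. These genes share the libraries and are not independent, so the values are descriptions.

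**Figure D3:**
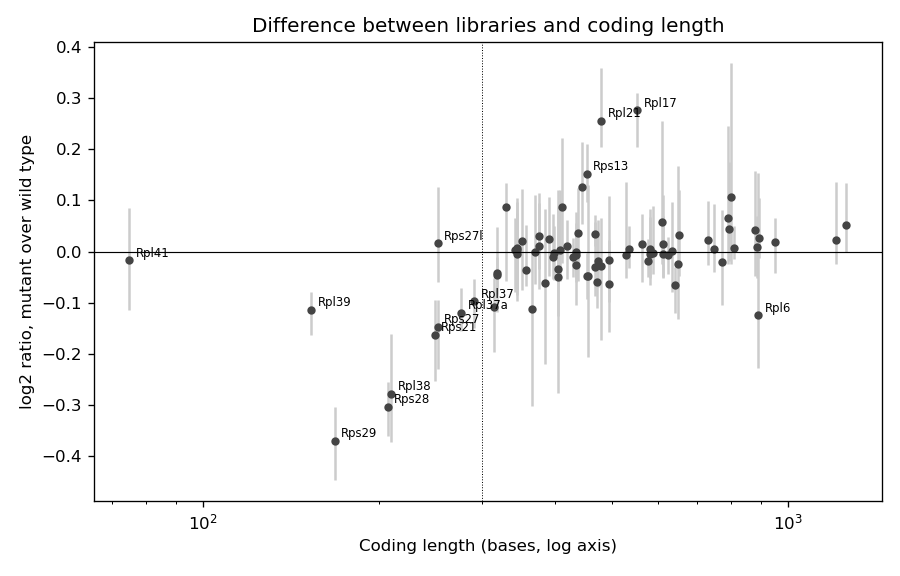
Mean log2 ratio over the 5 classes, mutant over wild type (vertical axis), against coding length in bases (horizontal log axis), for 80 ribosomal protein genes. Grey lines span the lowest and highest class and the dotted line marks 300 bases. Rps29, Rps28 and Rpl38 lie lowest, at -0.37, -0.30 and -0.28, while Rpl41 lies near 0.

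The medians of short genes outside the set lay nearer 0 than those of the short members. In microglia the 115 other measured genes under 300 bases had a median log2 ratio of -0.03, against -0.16 for the 10 members. In endothelial cells the medians were -0.14 for the 10 members and -0.04 for 141 others, and in astrocytes -0.12 for the members and 0.01 for 153 others. In the neuron lineage they were -0.10 for the members and 0.00 for 158 others, and in mural cells -0.11 for the members and 0.02 for 149 others. Length went with direction outside the set too in some classes. In microglia 68.7% of the other genes under 300 bases lay below 0, against 33.5% of those of 1200 bases or more. The shares were 68.8% and 38.3% in endothelial cells and 45.6% and 36.1% in mural cells. In astrocytes (46.4% and 55.6%) and the neuron lineage (48.7% and 51.9%) they ran the other way. Single short genes outside the set did pass 1.2 times lower: 3 in microglia, 2 in astrocytes, 6 in endothelial cells, 14 in mural cells and 7 in the neuron lineage, against 3, 3, 3, 1 and 2 of the members. Other short genes of at least 500 CPM were few. In microglia 2 of 10 of them were lower by 1.2 times, with a median of -0.03, and in the other classes 0 or 1 of 16 to 25, with medians of -0.02 to 0.04. Members that hold a small nucleolar RNA gene within their bounds, a common feature of these genes, had a median mean ratio of 0.01 (30 genes), and those without had -0.01 (50 genes).

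The cells were also split by Xist and Y-linked transcripts: 2109 mutant and 2870 wild-type cells held Xist alone (Xist cells), and 1760 mutant and 2086 wild-type cells held Y-linked transcripts alone (Y cells). Another 47 mutant and 100 wild-type cells held both, and 1360 mutant and 2042 wild-type cells held neither. In microglia the log2 ratio of Rps29 was -0.39 in Xist cells and -0.50 in Y cells, that of Rpl38 -0.33 and -0.40, that of Rpl17 0.34 and 0.23, and that of Rpl21 0.34 and 0.20. Outside mural cells, Rps29, Rps28, Rpl38, Rpl17, Rpl21 and Rps13 kept their direction in both subsets in all 4 classes. Rps21 did so except in Xist astrocytes (log2 0.02). In mural Y cells Rpl38 stood at 0.35 and Rps21 at 0.22.

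**Figure D4:**
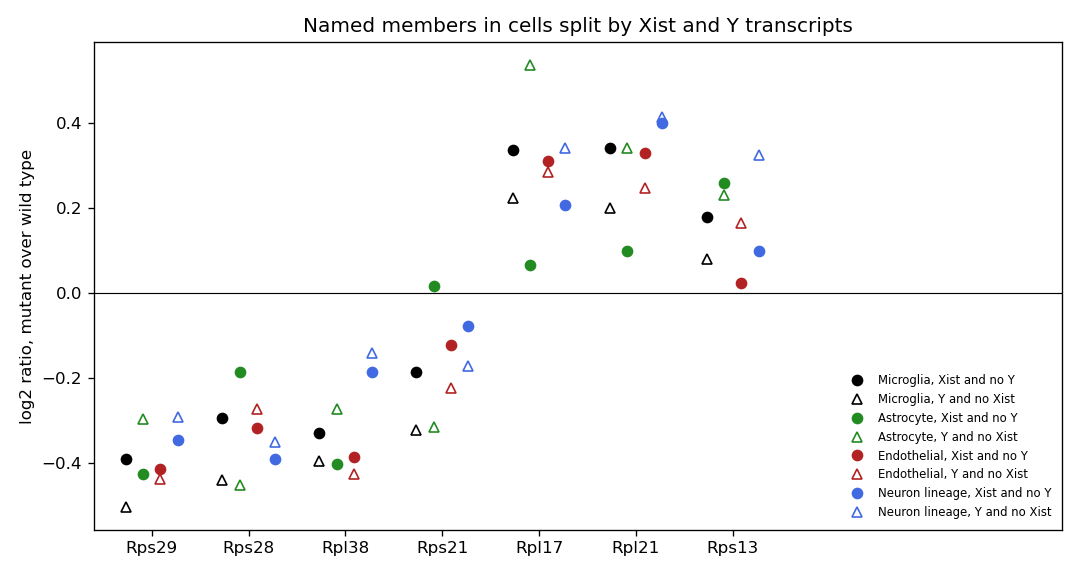
Log2 ratio, mutant over wild type (vertical axis), of the 7 named genes in Xist cells (filled circles) and Y cells (open triangles), in 4 classes by colour. Rps29, Rps28 and Rpl38 lie below 0 and Rpl17, Rpl21 and Rps13 above 0 in both subsets, and Rps21 lies at 0.02 in Xist astrocytes.

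Across classes, the same genes ranged widely in level in both libraries. Of 82 members that reached 50 CPM, the highest class held a median of 3.66 times the level of the lowest, and the range was 1.49 to 5.92 times, taking the smaller ratio of the libraries. The lowest class was the astrocytes in both libraries for 80 of the 82. The highest was the neuron lineage for 52, microglia for 19 and endothelial cells for 5, and for 6 it differed between the libraries. Rpl10, an X-linked gene of the large subunit, had the widest range, with 437 CPM in mutant and 447 CPM in wild-type microglia and 68.6 CPM in mutant and 75.4 CPM in wild-type astrocytes. Over all placed cells it had 362 CPM in the mutant and 367 CPM in the wild-type library, below the 1176.5 and 1155 CPM of the row of its processed copy Rpl10-ps3, and how reads were divided between the pair is not given in the sources used here. Wide ranges were also found for Rplp0, Rplp1, Rpl38, Rps12, Rps29 and Rps26. Rpl7l1 and Rpl22l1 varied least, by 1.49 and 1.53 times.

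Because astrocytes are low for nearly all members, the make-up of the set was also compared as each gene's percentage of the UMIs of the 86 genes. Rplp1, which with Rplp0 and Rplp2 forms the stalk that recruits elongation factors, was 3.14% of these UMIs in mutant and 3.10% in wild-type microglia, and its median over the other classes was 1.61% in the mutant and 1.55% in the wild-type library. Rps29 was likewise highest in microglia, with 3.70% in the mutant and 4.79% in the wild-type library against medians of 2.10% and 2.65% elsewhere. Rpl38 was 2.87% in mutant and 3.57% in wild-type endothelial cells, against medians of 1.30% and 1.46% elsewhere, and 0.913% of these UMIs in mutant and 1.11% in wild-type microglia.

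The neuron lineage had its own make-up. Rplp0 was 2.12% there in the mutant and 2.05% in the wild-type library (medians elsewhere 1.33% and 1.28%). Rpsa, the small-subunit protein also known as the laminin receptor, was 2.12% in the mutant and 2.04% in the wild-type library (medians elsewhere 1.44% and 1.42%). Rps26 was 2.05% in both libraries (medians elsewhere 1.29% in both). Rps27 was low there, 1.11% in the mutant and 1.23% in the wild-type library, against medians of 1.82% and 1.92% elsewhere. Astrocytes had more of Rpl22l1 (0.698% in the mutant and 0.699% in the wild-type library), Rpl31 (0.656% and 0.675%) and Rpl23a (0.493% and 0.527%) than the medians of the other classes, by 1.66 to 2.40 times. Mural cells came near astrocytes for Rpl22l1, with 0.557% in the mutant and 0.689% in the wild-type library.

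**Figure D5:**
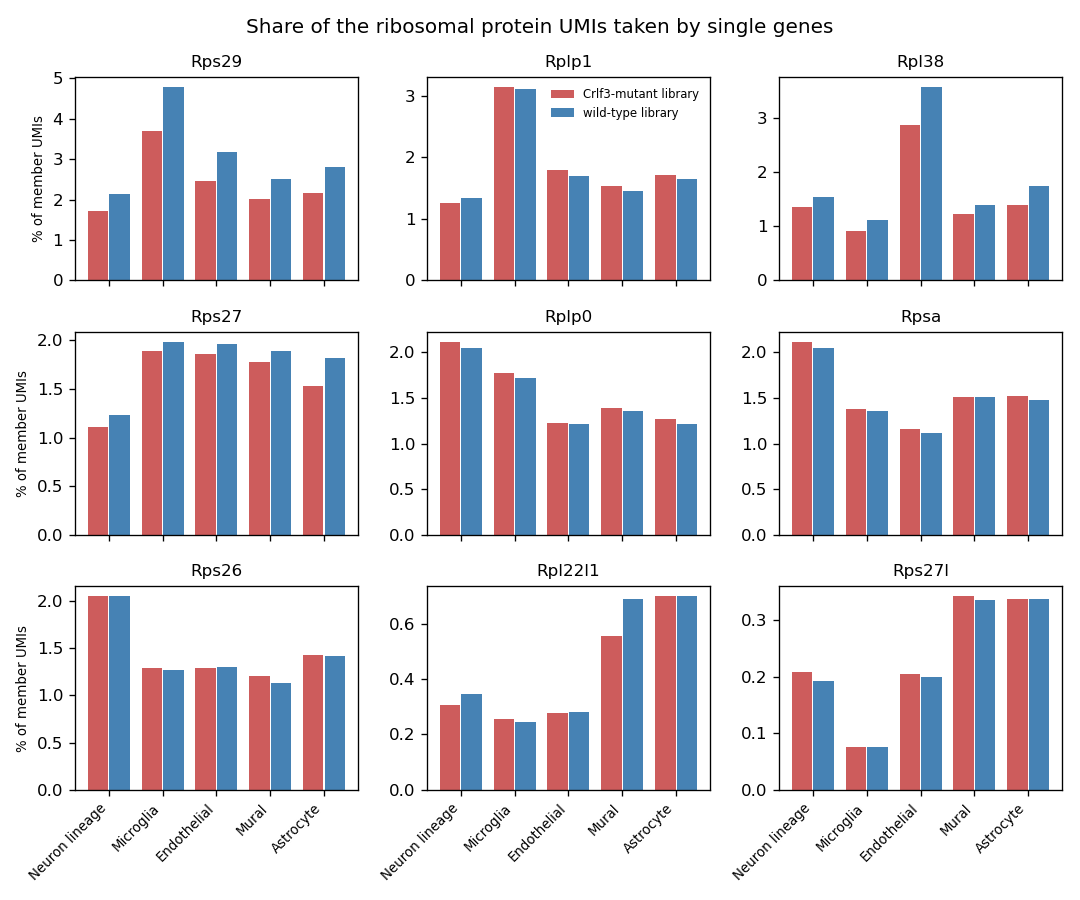
Percentage of the UMIs of the 86 genes taken by single genes (vertical axes from 0, scales differ) in 5 classes, with the mutant library left of the wild-type library. Rps29 and Rplp1 are highest in microglia, Rpl38 in endothelial cells and Rplp0, Rpsa and Rps26 in the neuron lineage, in both libraries.

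Of the like-genes, several are known from other tissues and were at or near 0. Rpl10l, a testis gene that stands in for Rpl10 in male germ cells, had 0 UMIs in all classes, including 0 of 3231 mutant and 0 of 4398 wild-type microglia; 3 UMIs, the number a count of 0 allows, would be 0.116 CPM in mutant and 0.102 CPM in wild-type microglia. Rpl3l, a gene of heart and skeletal muscle, had a UMI in 3 of 466 mutant and 1 of 746 wild-type astrocytes and in 2 of 3231 mutant and 0 of 4398 wild-type microglia. Rpl39l, another testis gene, had a UMI in 1.83% of mutant microglia (exact interval 1.39 to 2.35) and 1.14% of wild-type microglia (0.845 to 1.496), and in 0 of 466 mutant and 0 of 746 wild-type astrocytes. Its level in microglia was 2.43 CPM in the mutant and 2.00 CPM in the wild-type library, with overlapping intervals.

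Rps27l, a p53 target gene, was highest among the compared classes in the neuron lineage, with 215 CPM (196 to 235) in the mutant and 196 CPM (174 to 221) in the wild-type library, and lowest in microglia, with 70.2 CPM (67.0 to 73.5) and 73.6 CPM (70.6 to 76.8). Its partner Rps27 had 1755 CPM in mutant and 1948 CPM in wild-type microglia (log2 -0.15). Rpl22l1, the paralog of Rpl22, had 316 CPM in mutant and 354 CPM in wild-type cells of the neuron lineage and 237 CPM in mutant and 241 CPM in wild-type microglia, and Rpl22 had 790 CPM in mutant and 745 CPM in wild-type cells of the neuron lineage. Rpl36al ran from 164 to 350 CPM over the compared classes of the mutant library and from 168 to 352 CPM over those of the wild-type library. Rpl7l1, a nucleolar relative of Rpl7, had 49.3 to 73.3 CPM over the compared classes of the mutant library and 49.0 to 79.5 CPM over those of the wild-type library. The retrogene Rps27rt reached over the same classes at most 10.8 CPM in the mutant and 13.2 CPM in the wild-type library.

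Genes that make or use ribosomes were counted from lists of known function, and their counts are to be read against the shares of all genes past 1.2 times given above (0.526% higher and 0.712% lower in microglia, 22.6% and 13.2% in mural cells). Of 18 other TOP mRNA genes of translation, such as the elongation factors Eef1a1 and Eef2, 0 passed 1.2 times in microglia, astrocytes, endothelial cells or the neuron lineage, while in mural cells 1 was higher and 3 were lower. Their median log2 ratio was -0.01 in microglia, 0.10 in astrocytes, -0.02 in endothelial cells, 0.02 in mural cells and 0.03 in the neuron lineage.

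Among 16 initiation factors outside the TOP list, Eif4a1, an RNA helicase, had 596 CPM in mutant and 489 CPM in wild-type microglia (log2 0.28) and was the only one past 1.2 times there. In astrocytes 2 of 13 measured were higher, in endothelial cells 0 of 15 passed, in mural cells 5 of 13 were higher, and in the neuron lineage 1 of 14 was lower. Of 28 ribosome biogenesis genes, 0 of 11 measured passed 1.2 times in microglia and 0 of 5 in endothelial cells, 1 of 7 was higher in astrocytes, and 1 was higher and 1 lower of 5 in mural cells. In the neuron lineage 3 of 19 were higher and 1 lower, beside 6.03% and 7.7% of all genes. Dkc1, the pseudouridine synthase dyskerin, was the widest of these, with 59.6 CPM in the mutant and 30.8 CPM in the wild-type library (log2 0.77).

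Of 25 genes of mTORC1 and TOP mRNA control, 0 passed 1.2 times in microglia, astrocytes or endothelial cells, 2 were higher and 1 lower of 11 in mural cells, and 1 of 13 was lower in the neuron lineage. Of 16 RNA polymerase I symbols, 14 had a row in the matrices, and 2 to 7 were measured per class. Of these, 1 was higher in endothelial cells and 1 in the neuron lineage. Of 14 symbols for ribosome quality control, the 5S particle and p53, 12 had a row in the matrices. Of those measured, 3 of 5 were higher in mural cells (median 0.46) and 1 of 6 in the neuron lineage, and 0 passed in the other classes. Of 78 mitochondrial ribosomal protein genes, 62 were measured in the neuron lineage, where 3 were higher and 2 lower, with a median of 0.00. In astrocytes 1 of 49 was higher and 2 were lower (median 0.07), in mural cells 10 of 38 were higher and 8 lower (median 0.00), and in microglia and endothelial cells 0 passed.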

How the data were processed

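The authors deposited raw UMI counts per gene and barcode from 10x Genomics 5′ libraries. Per the labels' protocols and the file headers they were made with Cell Ranger 6.1.1 and the mm10 reference 2020-A, and Partek is listed by the submitters' processing notes without a role. Hippocampi were dissociated, cleared of debris and myelin, and sorted for live cells. Barcodes were kept from 500 genes and 1000 UMIs upward if no more than 10% of UMIs were mitochondrial (5353 mutant and 7246 wild-type). Scrublet (scanpy 1.11.5, expected rate 0.06) removed 77 mutant (1.44%) and 148 wild-type (2.04%) doublets. The gate left 365 mutant and 659 wild-type cells in no class. UMI counts were summed per class and library. Shares carry exact Clopper-Pearson and CPM values exact Poisson 95% intervals, and thinning drew 2000 UMIs per cell. PCR and free RNA also shape the counts, and intervals cover counting error only. The calculation was tested on simulated counts. It met the limits set for it in 4 classes and missed them in mural cells, where unchanged genes of low counts often passed 1.2 times. The limit for mural cells was then narrowed to genes of high counts, so that class is hardly tested and its single-gene ratios carry little weight.

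Named are the 3 highest and 3 lowest measured members per compared class, the 5 members of highest CPM, the 8 members of widest range over classes, and the like-genes with partners, except a few that are not reported here. The genes described, the lists and the alternatives were chosen with earlier results of these data known. All 86 genes matched GENCODE M21 by gene ID. Coding lengths and sequences come from its annotation and transcripts. Other tools were numpy 2.4.6, scipy 1.17.1, pandas 2.3.3 and leidenalg 0.10.2.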

Additional observations from a re-analysis of the deposited data

Results flagged for a closer look

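Among rows outside the 86 genes, Rpl10-ps3 and Rpl9-ps6, named as processed copies of Rpl10 and Rpl9, had counts well above 0. Rpl10-ps3 stood at 1176.5 CPM in all placed cells of the mutant library and 1155 CPM in those of the wild-type library, and Rpl9-ps6 at 1140 CPM in the mutant and 1092 CPM in the wild-type library. Both were higher in the mutant library by more than the counting error. The other 3 "-ps" rows had at most 6 UMIs in the mutant and 13 UMIs in the wild-type library.

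The share of ribosomal protein UMIs differed in opposite directions between Xist cells (Xist and no Y-linked transcript) and Y cells (the reverse) in astrocytes and mural cells. The log2 ratio, mutant over wild type, was 0.036 in Xist astrocytes and -0.056 in Y astrocytes. It was -0.074 in Xist mural cells and 0.215 in Y mural cells. The difference between the subsets was not tested, and each subset holds the cells of few animals.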

How the results depend on the processing

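No paired analysis was possible because each genotype is 1 library. The share of ribosomal protein UMIs stayed below the wild-type share in microglia and endothelial cells under every alternative run. As log2 ratios, thinning cells to 2000 UMIs gave -0.046 in endothelial cells and 0.059 in the neuron lineage. A looser gate gave 0.069 in astrocytes, -0.052 in mural cells and -0.0086 in the neuron lineage. A stricter gate gave -0.084 in microglia, -0.029 in astrocytes, -0.034 in endothelial cells and 0.101 in mural cells. Leiden clusters gave -0.064 in astrocytes, -0.067 in endothelial cells, -0.074 in mural cells and 0.0015 in the neuron lineage. Cells with Xist and no Y transcript gave -0.017 in microglia, 0.036 in astrocytes, -0.040 in endothelial cells, -0.074 in mural cells and -0.0025 in the neuron lineage, and cells with Y transcripts and no Xist gave -0.141, -0.056, -0.079 and 0.215 in the first 4 of these. The median of the share per cell gave -0.099 in microglia, -0.037 in astrocytes, -0.046 in endothelial cells and 0.038 in the neuron lineage. With members under 300 coding bases left out, an alternative chosen after seeing the data, the ratios were -0.037 in microglia, 0.041 in astrocytes, -0.022 in endothelial cells, 0.022 in mural cells and 0.044 in the neuron lineage. The sign in astrocytes, mural cells and the neuron lineage therefore depends on these choices, and the cause was not tested.

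Over the 5 classes, 7 pairs of a member and a class were at least 1.2 times higher and 14 at least 1.2 times lower in the mutant library. The counts became 19 higher with thinned cells, 21 higher and 22 lower with the stricter gate, 12 higher and 28 lower in Xist cells, 42 higher in Y cells, and 0 higher and 0 lower at 1.5 times. The share of all genes past 1.2 times was not counted under these other choices of cells or depth. Some of their classes were small, with 39 mutant and 24 wild-type mural Y cells, and 48 and 50 mural cells under the stricter gate. The changed counts are therefore not results about the members. Without the members under 300 bases, 2 were lower. Leaving out the cells whose barcode occurs in both libraries, also chosen after seeing the data, gave 10 higher and 12 lower.

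Of 451 values of the named genes reported here under the alternatives, 395 kept their sign and their side of 1.2 times, 26 passed it, 19 fell short of it and 11 changed sign; the cause was not tested. In mural cells these were Rpl22l1 at 0.27 in Xist cells, Rpl38 at 0.35 and Rps21 at 0.22 in Y cells, Rps21 at 0.11 and Rpl17 at -0.092 under the stricter gate, and Rpl13a at -0.14, Rpl17 at -0.012 and Rpl21 at -0.0038 with Leiden clusters. Elsewhere they were Rpl38 at 0.064 with thinned cells and Rps21 at 0.032 under the stricter gate, both in the neuron lineage, and Rps21 at 0.017 in Xist astrocytes. Depth limits single genes most in mural cells.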
